A study of Mus musculus with 8 samples.

Results

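The genes described here encode proteins of the PML nuclear body and its neighbours in the nucleus: Pml, the SP family members Sp100, Sp110 and Sp140, and the histone chaperone pair Daxx and Atrx. They were taken by gene symbol and joined to the count table by Ensembl identifier, which gave 6 genes of the 55536 counted, of which 34703 had at least 1 count. All 6 passed the filter on low counts. RNA was sequenced from 8 tumors of HCA-1, a mouse hepatocellular carcinoma line, grown from implanted cells in the liver of male C3H mice, and the comparison asked how the tumor transcriptome changed shortly after the nanoparticle PFSUV-IMQ. PFSUV-IMQ carries imiquimod, an agonist of the endosomal RNA sensor TLR7, in phospholipid-free small unilamellar vesicles. It was given i.v. on day 17 at 4 mg per kg to 4 mice (labelled IMQNP, replicates 1, 2, 3 and 4), and 4 other mice (labelled Control, replicates 1, 3, 4 and 5) received saline. The study's methods give saline for the control mice, whereas a figure legend calls them untreated. All tumors were taken 3 h later. The labels give the mice an age of 6 to 8 weeks, whereas the methods give a lower age, and both groups carry the same tumor line with no genetic change between them. Whole tumor tissue of a single line was measured, so the values cover tumor cells, liver tissue and immune cells together.

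PML nuclear bodies are round structures in the nucleus that the PML protein builds, with SP100, DAXX and many client proteins held in them through the small modifier SUMO. They are known for roles in intrinsic defence against DNA viruses, in p53 regulation and in the deposition of the histone variant H3.3, and PML and SP100 are classical interferon-induced genes. DAXX is the H3.3 chaperone that ATRX, a chromatin remodeler, works with at repeats and telomeres. SP110 and SP140 are chromatin readers of the SP100 family that are best known from immune cells, and in the mouse they lie beside Sp100 in a stretch of chromosome 1 that also holds many copies of parts of these genes.

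The bases next to the start sites of Pml, Sp100 and Sp110 are shown because they hold the core of an interferon regulatory factor motif, which the windows of Sp140, Daxx and Atrx do not. RefSeq on GRCm38.p6 gave 10 windows of 300 bases for the 6 genes, from 250 bases before to 50 bases after a start, with several starts for Sp100, Sp110 and Daxx. The core was in both windows of Sp100 and in 1 of the 2 windows of Sp110, and the other Sp110 start lacked it. Capitals mark the matches to AANNGAAA, read as TTTCNNTT on the other strand, and overlapping matches run together.
Pml, chr9:58249842-58249871, minus strand: gctccctagtcTTTCTCTTaactttggaag
Sp100, chr1:85649934-85649963, plus strand: gaattacTTTCGTTTTTCTTTTccccatca
Sp110, chr1:85598779-85598808, minus strand: agatcacTTTCATTTTTCTTTTcttgaagc
The Pml stretch began 85 bases before the start site and that of Sp100 began 54 bases before the first of its starts, whereas that of Sp110 began 2 bases after its start. Counted from 1 at the first capital, the 15 capital bases of Sp100 and Sp110 differed only by G5A.

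The core was found on either strand in 4 of these 10 windows and in 23.9% of all 32817 windows, or in 3 of the 6 genes and in 26.7% of 26994 genes, so it does not set these starts apart. The longer interferon-stimulated response element, a pair of GAAA with 2 bases between them, was in 0 of the 10 windows and in 3.43% of all windows. The run that Sp100 and Sp110 share, TTTCNTTTTTCTTTT, was looked for after the letters were seen. It was in 13 windows, 0.0396% of all, which belong to 12 genes. Sp100 and Sp110 are among them by construction. Of the others 3 were tested, of which Gm7609, a pseudogene that shares sequence with Sp100 and lies in the same stretch of chromosome 1, was higher after PFSUV-IMQ, while E2f8, with a log2 fold change of 0.11, and Pzp, with 0.10, did not pass. A match is a description of letters and does not show that a factor binds there.

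Counts totalled 16883911 to 27687756 per tumor in the saline group and 17008151 to 18527613 in the PFSUV-IMQ group, and the 6 genes had between 467 and 5927 counts in each tumor. Values are given as normalized CPM, the counts of a gene scaled for library size with edgeR's TMM method, and the floor of 3 counts was at 0.108 to 0.178 CPM. PFSUV-IMQ replicate 2 stood apart in its tissue markers. Its 8 hepatocyte markers summed to 31095 CPM against 7768 to 9803 in the other 3 tumors of its group. Of these markers Alb (22736 CPM), Apoa1, Ttr and Hnf4a were highest of the group in replicate 2. Krt8 (444 CPM), Krt18 (550), Afp (2.10) and Gpc3 (0.629) were instead lowest of the group there. The 5 T cell markers of replicate 2 summed to 133 CPM against 52.7 to 75.9, and its 5 B cell markers to 30.3 against 4.29 to 5.79. Leukocyte markers summed to 512 CPM in replicate 2 against 271 to 402 and natural killer cell markers to 19.4 against 4.18 to 6.57. Of the leukocyte markers Laptm5 was lower in replicate 2 (178 CPM) than in replicate 1 (218 CPM). Macrophage and endothelial markers summed to 287 and 110 CPM in replicate 2, below replicate 1 at 324 and 112 CPM. The dendritic cell markers of replicate 2 had the lowest sum of the group, 57.1 against 62.2 to 96.7. That low sum came from Itgax alone, at 27.5 CPM against 44.7 to 80.4. The other dendritic cell markers, Flt3, Zbtb46, Xcr1, Siglech and Ccr9, were each highest of the group in replicate 2. In the saline group the hepatocyte markers summed to 6165 to 30733 CPM, so both groups held a tumor with a high value. Replicate 2 had the highest level of its group for all 6 genes, at 1.41 to 2.01 times the mean of the other 3 tumors, and fold changes without it are given beside the results. The part of these differences in the results was not tested.

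Of the 6 genes, 5 were higher after PFSUV-IMQ, and Atrx did not pass the test. Calls rest on edgeR's quasi-likelihood test at an adjusted p under 0.05 with Benjamini-Hochberg adjustment over all 15998 tested genes, of which 394 were higher (2.46%) and 35 were lower (0.219%). All PFSUV-IMQ tumors lay above all saline tumors for the same 5 genes, which held for 6.00% of all tested genes. The median log2 fold change was 1.99 over the 6 genes and -0.03 over all tested genes. In whole tissue, fewer cells of a type and less RNA per cell cannot be told apart, and the same holds for increases.

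**Figure D1:**
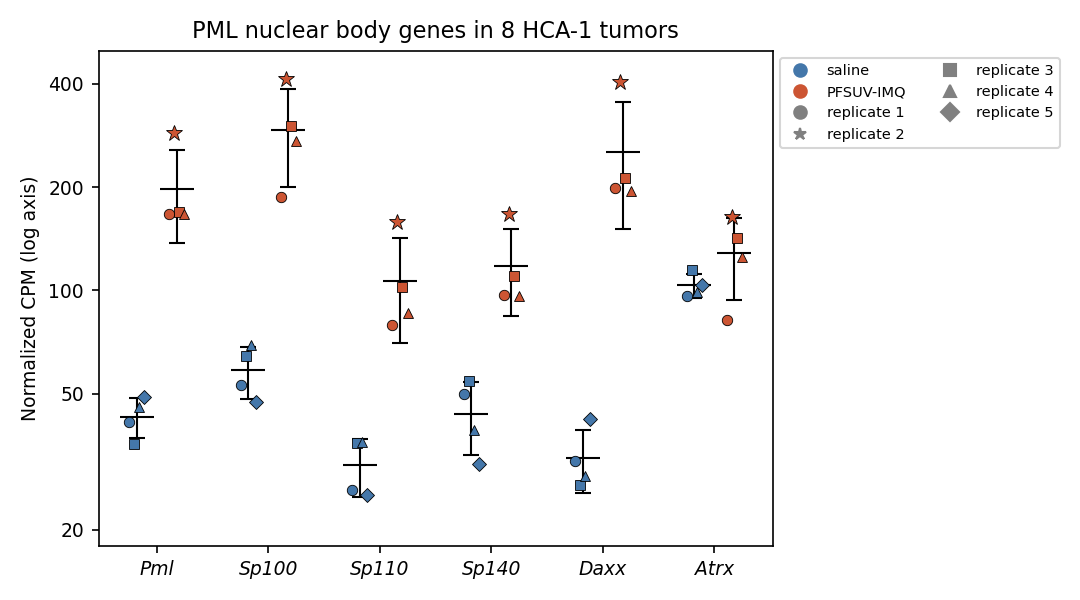
Normalized CPM (log axis) of the 6 PML nuclear body genes in each of 4 saline (blue) and 4 PFSUV-IMQ (orange) tumors, where marker shapes give the replicate number and black bars the mean ± SD. For 5 genes all PFSUV-IMQ tumors lie above all saline tumors, whereas Atrx overlaps, and replicate 2 (star) is the highest of its group throughout.

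Pml (ENSMUSG00000036986, chr9:58218076-58249786 on GRCm38) encodes the scaffold of the body. It was measured at 41.3, 35.5, 45.5 and 49.0 CPM in saline replicates 1, 3, 4 and 5 and at 167, 287, 169 and 167 CPM in PFSUV-IMQ replicates 1, 2, 3 and 4. Apart from replicate 2, the PFSUV-IMQ tumors lay close together, and the lowest of them was 3.41 times the highest saline tumor. The group means were 42.8 ± 5.80 and 198 ± 59.8 CPM (SD, n = 4 per group). This was a 4.61-fold increase with a 95% interval of 3.24 to 6.56, or 2.21 ± 0.23 on the log2 scale (± SE), with an adjusted p of 0.00121 by edgeR. Without PFSUV-IMQ replicate 2 the log2 fold change was 1.95.

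Sp100 (ENSMUSG00000026222, chr1:85649988-85709998) encodes the founding member of the SP family, a constant partner of PML in the bodies. It had 52.9, 64.5, 69.1 and 47.2 CPM in the saline group and 187, 414, 302 and 272 CPM in the treated group, in the same order of tumors. The groups were well separated, with the lowest PFSUV-IMQ tumor, replicate 1, at 2.71 times the highest saline tumor. Means were 58.4 ± 10.1 and 294 ± 93.7 CPM, a 5.03-fold increase (interval 3.36 to 7.52). On the log2 scale it was 2.33 ± 0.26, with an adjusted p of 0.00188 by edgeR, and 2.10 without replicate 2.

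Sp110 (ENSMUSG00000070034, chr1:85576899-85598817) encodes an SP family protein that is induced by interferon in many cell types. It had 26.1, 35.9, 36.0 and 25.4 CPM in the saline tumors, and 79.1, 158, 102 and 85.6 CPM in the treated ones. Every PFSUV-IMQ tumor was at least 2.19 times the highest saline tumor. Means of 30.9 ± 5.93 and 106 ± 35.8 CPM gave a 3.44-fold increase (interval 2.33 to 5.08). The log2 value of 1.78 ± 0.25 had an adjusted p of 0.00551 by edgeR and was 1.51 without replicate 2.

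Sp140 (ENSMUSG00000070031, chr1:85600378-85645037) encodes a bromodomain protein of the same family that is mainly known from lymphoid and myeloid cells. It had 49.9, 54.5, 39.1 and 31.2 CPM with saline, and 96.9, 167, 110 and 96.3 CPM with PFSUV-IMQ. The gap between the groups was the narrowest of the 5, at 1.77 times. With means of 43.7 ± 10.5 and 118 ± 33.5 CPM, the increase was 2.69-fold (interval 1.84 to 3.94). Its log2 value of 1.43 ± 0.25 had an adjusted p of 0.0152 by edgeR and was 1.19 without PFSUV-IMQ replicate 2. The call was lost when saline replicate 4 was left out (log2 fold change 1.38, adjusted p = 0.0548). Against a minimum log2 fold change of 1, tested with edgeR's glmTreat, neither Sp140 (adjusted p = 0.701) nor Sp110 (adjusted p = 0.109) passed, whereas Pml, Sp100 and Daxx did.

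Counts of Sp110 and Sp140 are less certain than those of the other genes because of their copies. Of the 50-base words of the longest transcript, 53.8% in Sp110 and 54.6% in Sp140 also occur in transcripts of other genes, compared to 8.67% in Sp100 and 0 in Pml, Daxx and Atrx. Most of those of Sp110 were shared with the pseudogene Gm16026. Exons of Gm10552 and Gm17017, annotated on the opposite strand, cover 26.5% of the Sp140 exon bases, and since the strand setting of the counting is not given, reads from either strand cannot be told apart. Sums were taken over each SP gene and the chromosome 1 genes that share such words with it. The SP gene itself made up 79.7 to 88.5% of the sum for Sp110, 85.1 to 91.7% for Sp140 and 91.3 to 96.3% for Sp100. The sums therefore could hardly move by another factor than the gene alone, and they do not show how reads were split between copies. Sp110 with 2 such genes went from 37.5 ± 7.60 to 125 ± 49.7 CPM, a ratio of means of 3.35 against 3.44 for Sp110 alone. Sp140 with 7 such genes went from 49.2 ± 11.8 to 132 ± 42.9 CPM, a ratio of 2.68 against 2.69. Sp100 with 6 such genes went from 61.4 ± 10.7 to 316 ± 105 CPM, a ratio of 5.14 against 5.03, and in none of the 3 sums did the groups overlap.

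Daxx (ENSMUSG00000002307, chr17:33909414-33915590) encodes the chaperone that hands H3.3 to chromatin and is held in PML bodies through SUMO. It had 31.7, 27.0, 28.8 and 42.2 CPM in the 4 saline tumors, and 198, 406, 213 and 195 CPM in the 4 treated tumors. Its groups were the farthest apart of the 6 genes, with the lowest PFSUV-IMQ tumor at 4.61 times the highest saline tumor. Means were 32.4 ± 6.80 and 253 ± 102 CPM, a 7.80-fold increase (interval 4.95 to 12.3). The log2 value was 2.96 ± 0.29, with an adjusted p of 9.6e-04 by edgeR, and 2.62 without replicate 2.

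Atrx (ENSMUSG00000031229, chrX:105797615-105929403) encodes the remodeler that pairs with DAXX. It had 96.2, 114, 98.8 and 104 CPM with saline, and 81.8, 164, 142 and 125 CPM with PFSUV-IMQ. The groups overlapped, with PFSUV-IMQ replicate 1 below all saline tumors. Means were 103 ± 8.04 and 128 ± 34.7 CPM, and the log2 value of 0.31 ± 0.21 had an adjusted p of 0.633 by edgeR and was 0.15 without replicate 2. The interval of the fold, 0.894 to 1.72, leaves room for a modest change in either direction and lies below the intervals of the other 5 genes.

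Whether the genes changed by the same factor was tested on the difference in log2 CPM between 2 of them within each tumor, which does not depend on how libraries are scaled. Over the 15 pairs, an exact two-sided permutation test over the 70 groupings of 4 against 4 tumors can give no p below 0.0286, and 10 pairs reached it (adjusted p = 0.0429 over the 15 pairs). All 5 pairs with Atrx were among them. Since the 10 pairs share the smallest possible p, whether any of them passes after adjustment depends on how many of the 15 pairs reach it. Relative to Atrx, Daxx rose by 2.64 ± 0.26 on the log2 scale (± SE), Sp100 by 2.02 ± 0.14, Pml by 1.90 ± 0.23, Sp110 by 1.48 ± 0.18 and Sp140 by 1.15 ± 0.23. Daxx also rose beyond Pml, with Pml minus Daxx changing by -0.74 ± 0.11, beyond Sp110 (-1.16 ± 0.28) and beyond Sp140 (-1.49 ± 0.32). Within the SP family, Sp100 rose beyond Sp110 by 0.54 ± 0.10 and beyond Sp140 by 0.87 ± 0.21.

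The other 5 pairs did not pass. Pml and Sp100, the core pair of the bodies, differed in their change by -0.12 ± 0.24 (exact permutation p = 0.657). Sp100 minus Daxx changed by -0.62 ± 0.30, Pml minus Sp110 by 0.43 ± 0.22 and Sp110 minus Sp140 by 0.32 ± 0.18 (exact permutation p = 0.114 each). Pml minus Sp140 changed by 0.75 ± 0.28 (exact permutation p = 0.0571). With any tumor left out, 7 tumors allow no p below 0.0571, so no pair can pass then.

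**Figure D2:**
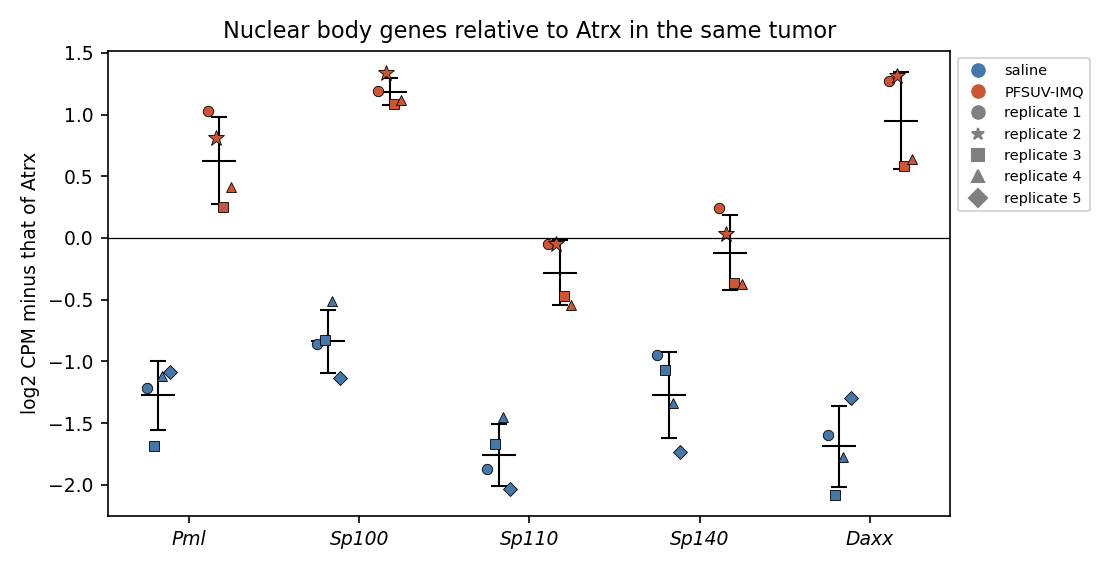
Difference in log2 CPM between each of 5 genes and Atrx in the same tumor, for 4 saline (blue) and 4 PFSUV-IMQ (orange) tumors, with marker shapes for the replicate number and black bars for the mean ± SD. The groups are separate for every gene, and the mean of Daxx moves from -1.69 to 0.95.

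Levels of different genes were compared per length, as RPKM, which are CPM per kilobase of the union of annotated exons. In saline tumors Sp140 had 13.1 ± 3.16 RPKM, Daxx 10.3 ± 2.16, Sp100 7.73 ± 1.34, Pml 7.69 ± 1.04, Atrx 4.75 ± 0.37 and Sp110 4.55 ± 0.87 (SD, n = 4). Neighbours in that order overlapped over tumors except Pml and Atrx. After PFSUV-IMQ the order was led by Daxx at 80.3 ± 32.5 RPKM, followed by Sp100 at 38.9 ± 12.4, Pml at 35.5 ± 10.7, Sp140 at 35.3 ± 10.1, Sp110 at 15.7 ± 5.29 and Atrx at 5.89 ± 1.60. There the ranges overlapped between Sp100 and Pml and between Pml and Sp140, and the other neighbours were apart. The exon unions of Atrx (21757 bases), Sp100 (7556) and Sp110 (6781) are much longer than their longest transcripts (10275, 3807 and 2583 bases), which lowers their level per length. The ranks of Sp110 and Sp140 also rest on counts that their copies make less certain. Per kilobase of the longest transcript, a choice made after seeing the data, Daxx at 94.6 ± 38.3 and Sp100 at 77.2 ± 24.6 still had the highest means after PFSUV-IMQ and Atrx at 12.5 ± 3.38 the lowest. In saline tumors the order then changed to Sp140 (18.1), Sp100 (15.3), Daxx (12.1), Sp110 (12.0), Atrx (10.1) and Pml (9.56), so the rank of Pml against Atrx there depends on the length used.

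The per-length ratio of Daxx to Atrx compares the chaperone with its remodeler partner in each tumor. Over the exon unions it was 2.28, 1.63, 2.01 and 2.80 in saline replicates 1, 3, 4 and 5 and 16.7, 17.1, 10.4 and 10.7 in PFSUV-IMQ replicates 1 to 4. No PFSUV-IMQ tumor came near the saline range. Over the longest transcripts the ratio was lower, at 0.907 to 1.56 in saline tumors and 5.76 to 9.53 after PFSUV-IMQ, a change of length that scales every tumor alike. The ratio of replicate 2 was near that of replicate 1, although replicate 2 had the highest level of both genes.

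**Figure D3:**
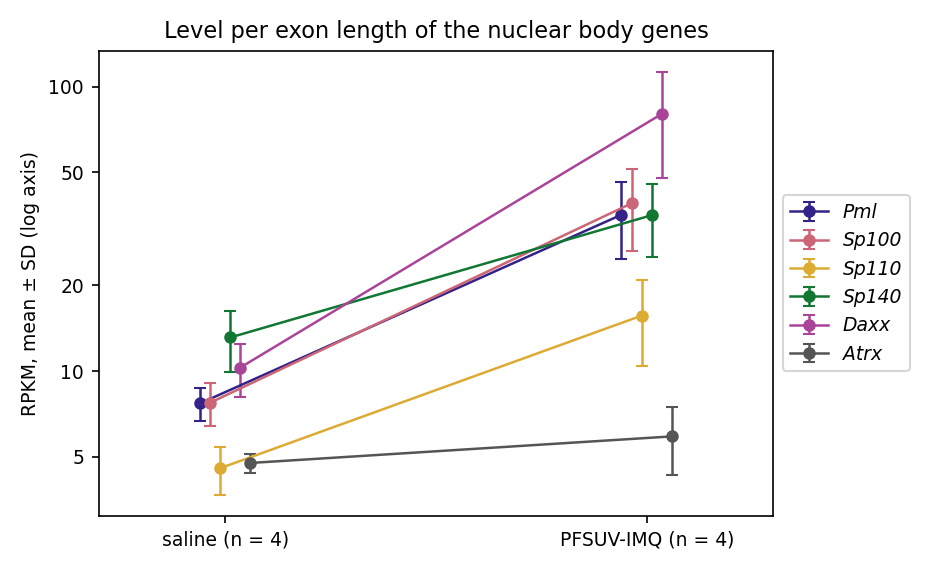
Level per exon length (RPKM, log axis) of the 6 genes in saline and PFSUV-IMQ tumors, as mean ± SD of 4 tumors each, with lines joining the means of a gene. Daxx moves from 10.3 to 80.3 RPKM and becomes the highest, whereas Atrx, at 4.75 and 5.89 RPKM, becomes the lowest.

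The other genes known from PML body biology were taken as 4 lists, of the SUMO pathway, of H3.3 and heterochromatin factors, of p53 regulators, kinases and repair proteins linked to the bodies, and of factors that turn PML over. Of their 62 genes, all tested, 1 was higher and 0 were lower. At an unadjusted p under 0.05, 3 were higher and 5 lower, where 8.34% of all tested genes were higher and 4.65% lower, and edgeR's exact test and the Wald test of DESeq2 each called 1. Their median log2 fold change was -0.03, equal to that of all tested genes, and the 95% intervals of 55 of them lay within 1 log2 unit of 0.

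The single higher gene was Isg20, an interferon-induced RNA exonuclease that is found in PML bodies. It had 27.2, 27.5, 23.4 and 29.8 CPM in saline tumors, and 65.6, 130, 69.2 and 64.9 CPM in treated tumors, with no overlap. On the log2 scale it rose by 1.61 ± 0.25, with an adjusted p of 0.00884 by edgeR, and by 1.29 without PFSUV-IMQ replicate 2. The other genes of its list included the checkpoint kinase gene Chek2, with -0.73 (adjusted p = 0.213), and the p53 ligase gene Mdm2, with 0.65 (adjusted p = 0.441), neither of which passed.

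None of the 18 SUMO pathway genes passed, by the quasi-likelihood test, at an unadjusted p under 0.05, or by edgeR's exact test or DESeq2. All 18 intervals lay within 1 log2 unit of 0, and the median log2 fold change was -0.08. Pias3, a SUMO ligase gene, had a log2 fold change of -0.38, and Sumo2, a modifier gene, had -0.30. None of the 14 H3.3 and heterochromatin genes passed either, with 1 higher and 3 lower at an unadjusted p under 0.05 and 0 called by edgeR's exact test or DESeq2. Their largest changes were those of Morc3, an ATPase gene of the bodies, at 0.71 (adjusted p = 0.271), Ubn2, of the HIRA complex that deposits H3.3 apart from DAXX, at 0.53, and H3f3a, which encodes H3.3, at -0.52 (adjusted p = 0.345). Of the 11 turnover genes, 0 passed by any of the 3 tests, with 1 higher at an unadjusted p under 0.05. Siah2, a ubiquitin ligase gene, had 0.35, Uhrf1 -0.27 and Ube3a 0.25.

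Of 11 genes of type I interferon signaling, 4 were higher and 0 lower. Irf7, the regulator that amplifies interferon production, had means of 67.8 ± 13.3 and 520 ± 219 CPM, a rise of 2.94 on the log2 scale (adjusted p = 0.00121 by edgeR). Stat2 rose by 2.34 (adjusted p = 4.99e-04) and Irf9, which binds DNA at the response element, by 1.26 (adjusted p = 0.00870) on the log2 scale. Without PFSUV-IMQ replicate 2 all 3 stayed called, at 2.58 for Irf7, 2.22 for Stat2 and 1.10 for Irf9. Irf1 had 0.87 (adjusted p = 0.0939), which passed by edgeR's exact test and DESeq2 only. The receptor genes Ifnar1 and Ifnar2, the kinase genes Jak1 and Tyk2, and Irf3 and Irf8 had log2 fold changes between -0.14 and 0.07.

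**Figure D4:**
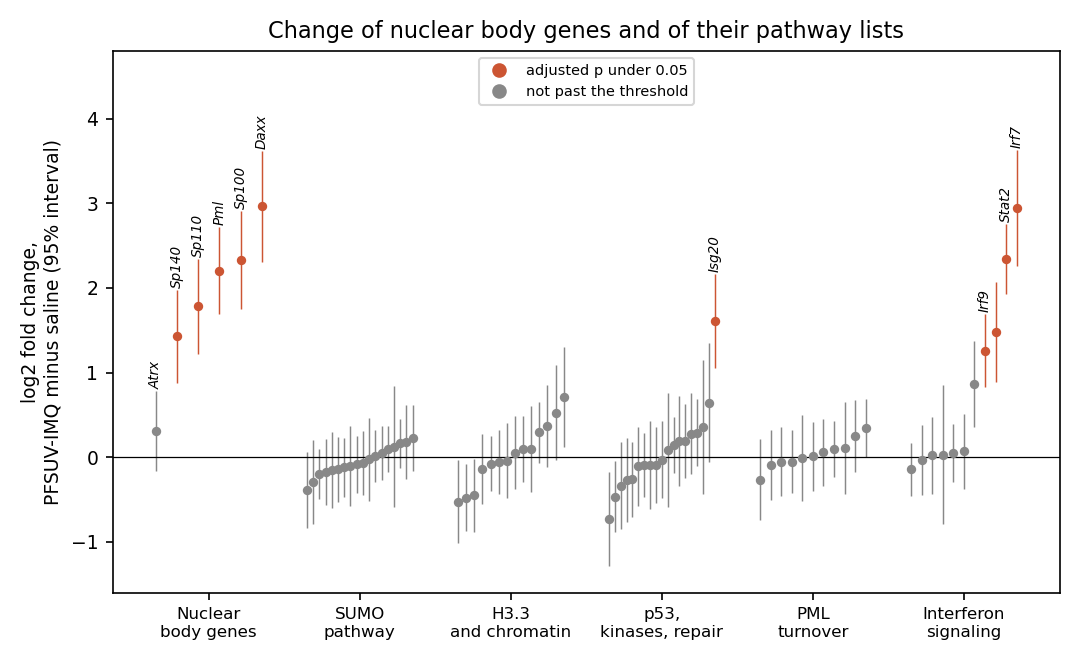
Log2 fold change (PFSUV-IMQ minus saline) with its 95% interval for the 6 nuclear body genes and for each gene of 5 lists, in order of size within a list. Orange points passed an adjusted p under 0.05, which holds for 5 of the 6 nuclear body genes, for Isg20 alone of the 62 genes of the SUMO, H3.3, p53 and turnover lists, and for 4 of 11 interferon signaling genes. Names are drawn for Atrx and for most genes that passed.

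The stretch of chromosome 1 around the SP genes was followed gene by gene. Within 500 kb of Sp100, Sp110 or Sp140, 45 genes were counted and 20 tested, and of the 17 that are not SP genes 2 were higher and 0 lower, with a median log2 fold change of 0.97. Both are annotated as transcribed pseudogenes and share 50-base words with Sp100. Gm7609 (chr1:85199613-85213786) had means of 0.864 ± 0.460 and 11.3 ± 8.00 CPM, a log2 rise of 3.67 ± 0.55 (adjusted p = 0.00783 by edgeR), which was 3.02 without PFSUV-IMQ replicate 2. Gm7592 (chr1:85526690-85550577) had 1.44 ± 0.313 and 7.09 ± 2.36 CPM, a log2 rise of 2.29 ± 0.32 (adjusted p = 0.00503 by edgeR), which was 2.09 without that tumor. Of their 50-base words, 53.7% in Gm7609 and 75.8% in Gm7592 occur in transcripts of other genes too, so their counts cannot be told apart from those of relatives in full.

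On that side of Sp100, A530032D15Rik (log2 fold change 1.80), the pseudogene Gm16026 (1.54) and the antisense genes A530040E14Rik (1.53) and Gm17017 (1.74) had groups that did not overlap but did not pass, with adjusted p values from 0.110 to 0.157. Without PFSUV-IMQ replicate 2 their log2 fold changes were lower, from 0.83 for A530040E14Rik to 1.45 for Gm17017. Gm18342 (1.06) and C130026I21Rik (0.97) overlapped. Gm2666 was at 0.0543 to 0.246 CPM in saline tumors, around the floor, and at 0.552 to 2.86 CPM after PFSUV-IMQ (adjusted p = 0.0567 by edgeR). The number of genes called there depended on the settings, with 5 higher when no filter on low counts was used, 6 by edgeR's exact test and by DESeq2, and 1 when at least 10 counts were required in every tumor.

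On the other side of Sp100 none of the 8 tested genes passed. A630001G21Rik had a log2 fold change of 0.29 and the kinase adaptor gene Cab39 -0.06. Itm2c had 0.24, Gpr55 -0.27, Gm18180 -0.14, the proteasome subunit gene Psmd1 -0.13 and Armc9 -0.41, and the groups of all of them overlapped. The exception in size was 2810459M11Rik, which went from 11.9 ± 9.67 to 2.83 ± 2.64 CPM (log2 fold change -2.09, adjusted p = 0.211), with overlapping groups. This gene was called lower without PFSUV-IMQ replicate 2 (-2.99, adjusted p = 0.0452 by edgeR) and by DESeq2 (-2.07, adjusted p = 0.0297).

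**Figure D5:**
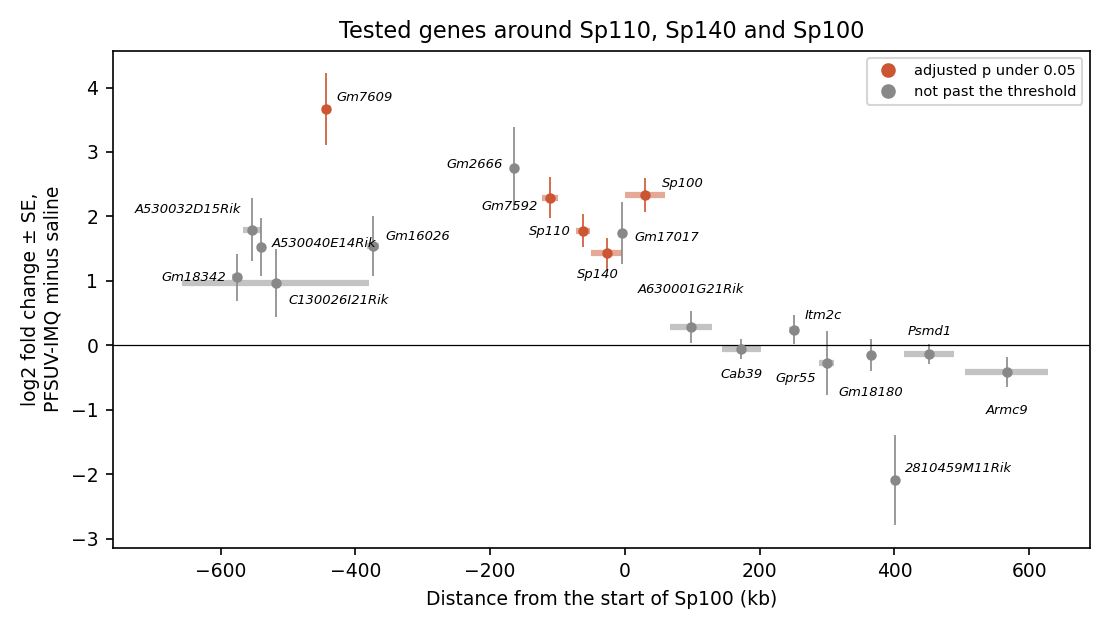
Log2 fold change ± SE of the 20 tested genes within 500 kb of the SP genes, against the distance from the start of Sp100 in kilobases, with thick lines for the extent of each gene and orange for an adjusted p under 0.05. Higher values, including those of the SP genes, Gm7592 and Gm7609, lie on the left and at 0, and those to the right of Sp100 lie between -0.41 and 0.29 apart from 2810459M11Rik.

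Because Sp110 and Sp140 are best known from immune cells, cell type markers were read beside them. Markers of leukocytes (4 genes, 329 to 442 CPM in saline tumors and 271 to 512 after PFSUV-IMQ), T cells (5 genes, 47.1 to 111 and 52.7 to 133), B cells (5 genes, 2.12 to 10.1 and 4.29 to 30.3) and dendritic cells (6 genes, 76.9 to 99.7 and 57.1 to 96.7) had 0 genes called by edgeR's quasi-likelihood test. At an unadjusted p under 0.05, 1 leukocyte and 3 dendritic cell markers were lower, 1 B cell marker was higher and 0 T cell markers moved, and only DESeq2 called any, 1 dendritic cell marker. Macrophage markers (7 genes) summed to 274 to 463 CPM in saline tumors and to 150 to 324 after PFSUV-IMQ, and of these Vsig4, a receptor gene of liver macrophages, was lower (log2 fold change -1.62, adjusted p = 0.0453). Of the macrophage markers 2 were lower at an unadjusted p under 0.05, and edgeR's exact test and DESeq2 each called 2. Clec4f, a Kupffer cell gene, had -0.96 (adjusted p = 0.122 by edgeR). The other macrophage markers did not pass the quasi-likelihood test either. Csf1r had a log2 fold change of -0.75, Adgre1 -0.42, Marco -0.28, Cd68 -0.21 and Timd4 0.14. Of the natural killer cell markers 2 of 3 were tested, with 0 called by each of the 3 tests and 1 lower at an unadjusted p under 0.05. Endothelial markers (4 genes, 93.2 to 153 and 73.2 to 112 CPM) and hepatocyte markers (8 genes) had 0 called by each of the 3 tests and 0 at an unadjusted p under 0.05. The hepatocyte markers include the tumor markers Afp, at 5.46 CPM after saline and 4.79 after PFSUV-IMQ, and Gpc3, at 1.23 and 1.57, which were low in these tumors of a hepatocellular carcinoma line, and Albumin (Alb), at 10372 and 9401 CPM. The part of these cells in the levels of the 6 genes was not tested.

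The genes whose pattern over the 8 tumors was most like that of each gene were found by the root mean square difference in log2 CPM after each gene was centred on its own mean. For Pml these were Trafd1 (0.134), a regulator of innate signaling, 4930599N23Rik (0.194) and Oas1c (0.213), of the oligoadenylate synthetase family. For Sp100 they were the ADP-ribosyltransferase genes Parp11 (0.127) and Parp12 (0.155) and the poly(A) polymerase gene Tent5a (0.174). Sp110 was nearest to Ube2l6 (0.135), the conjugating enzyme gene for ISG15, H2-T24 (0.146), an MHC class I-like gene, and Samhd1 (0.165), a nucleotide hydrolase gene. Sp140 was nearest to Irf9 (0.174) and to Tor1aip2 (0.176) and Tor1aip1 (0.177), which encode torsin activators of the nuclear envelope and endoplasmic reticulum. Daxx was nearest to Irf7 (0.153), Oas1a (0.223) and AW011738 (0.258).

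Atrx was nearest to Kmt2c (0.0835), a histone methyltransferase gene, Ahi1 (0.0975) and Atxn7l3b (0.110), none of which passed the test, with log2 fold changes from 0.21 to 0.29. All 15 genes nearest to the other 5 were called higher. Such likeness is a description over 8 tumors that share their libraries and groups, and a likeness of genes that rise in the same tumors follows in part from the comparison itself. Between the 6 genes the same measure ran from 0.278 for Sp110 and Sp140 to 1.36 for Daxx and Atrx.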

How the data were processed

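RNA was sequenced from 8 HCA-1 tumors with the KAPA mRNA HyperPrep kit, 4 per group, each from its own mouse. The authors deposited raw counts of reads per gene, which were the input of every test. They also deposited a table of signal values, counts divided by DESeq2 size factors, used here for gene symbols and an added alternative. The study's methods name TopHat and HTSeq, whereas the submitters' processing notes name Trimmomatic 0.38, HISAT2 2.1.0 and featureCounts 2.0.0, so the aligner and counter are uncertain. The build and strand setting of the counting are not given in the sources used here. All 55536 identifiers are in GENCODE M21 (GRCm38), the source of coordinates and exon lengths, and counts from reads that fit several copies depend on the counter.

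Counts were normalized by TMM, filtered with filterByExpr and tested with glmQLFTest in edgeR 4.0.16 (R 4.3.3), with 15998 genes tested and calls made at an adjusted p under 0.05. Standard errors are the log2 fold change over the root of the F statistic. Log2 CPM used a prior count of 2. DESeq2 1.42.0 and the other alternatives are described with their effects in the closing section. The code was tested on simulated data. No library was a copy of another (Pearson correlations within groups 0.912 to 0.984, chi-square per degree of freedom 29.0 to 291), so all 8 were kept. Mitochondrial genes took 1.37 to 4.72% of counts after saline and 1.59 to 6.65% after PFSUV-IMQ. No batch is given. The floor of 3 counts covers counting error only.

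Values of some list members and of 1 motif are not reported here. The members, lists and markers were chosen with earlier results of these data known. Genes named are the 6 members, the 3 genes of each pathway list with the largest absolute change and any called (up to 5), all tested genes near the SP genes, and the 3 genes most like each member. Irf1 and its unchanged neighbours in the interferon list, the marker genes, E2f8 and Pzp were named after their values were seen.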

Additional observations from a re-analysis of the deposited data

Results flagged for a closer look

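In the PFSUV-IMQ group, replicate 2 lay far from the other 3 tumors for Pml and for Daxx by Dixon's test at its 95% critical value. Pml was at 287 CPM there against 167 to 169 in the other tumors, a gap of 0.979 of the group's range. Daxx was at 406 CPM against 195 to 213, a gap of 0.913 of the range. These were 2 of 14 groups of values tested, and chance alone flags about 1 in 20 groups. The same tumor had the highest summed hepatocyte, leukocyte, T cell, B cell and natural killer cell markers of its group. Its macrophage and endothelial sums were not the highest. Of the hepatocyte markers, however, Krt8, Krt18, Afp and Gpc3 were lowest of the group there. Its dendritic cell sum was the lowest through Itgax alone, and its other dendritic cell markers were the highest. The part of these markers in the levels of Pml and Daxx was not tested. Without replicate 2 both genes remained called, with log2 fold changes of 1.95 for Pml and 2.62 for Daxx.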

How the results depend on the processing

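The calls of Pml, Sp100 and Daxx, and the missing call of Atrx, were the same under all 10 alternatives and with any tumor left out. The alternatives gave log2 fold changes of 2.05 to 2.22 for Pml, 2.01 to 2.35 for Sp100, 2.79 to 2.98 for Daxx and 0.14 to 0.32 for Atrx. They comprised DESeq2's or upper-quartile scaling, no filter or at least 10 counts in every tumor, edgeR's exact test and glmTreat, DESeq2's Wald test, a log2 limit of 1 added to the call, the replicate block, and, chosen after seeing the data, the authors' size factors. With glmTreat, Sp110 (1.78) and Sp140 (1.43) lost their calls, leaving 3 of the 6 genes, and it called 119 genes higher and 1 lower of all tested, and 2 higher in the pathway lists. DESeq2 called 729 genes higher and 176 lower, and near the SP genes 6 higher and 1 lower. The exact test called 627 higher and 110 lower, and 6 higher near the SP genes. Without a filter 64 genes were lower, and 5 near the SP genes were higher, against 1 with at least 10 counts in every tumor. The causes were not tested.

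Both groups have a replicate 1, 3 and 4, whereas replicate 2 is in the PFSUV-IMQ group only and replicate 5 in the saline group only. In a fit with a replicate block, replicates 2 and 5 do not inform the group difference, which then rests on replicates 1, 3 and 4. Tumors with the same number come from different mice, and their deviations from the group means correlated at 0.29, -0.27 and -0.32, none of them best with its own number. The fit with a replicate block called 5 of the 6 genes higher, 519 genes higher and 302 lower of all tested, 1 lower in the pathway lists (H3f3a, log2 fold change -0.81, adjusted p = 0.0441) and 1 lower near the SP genes, 2810459M11Rik (-3.09, adjusted p = 0.00825).

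With each tumor left out in turn, log2 fold changes ran from 1.95 to 2.28 for Pml, 2.10 to 2.49 for Sp100, 1.51 to 1.90 for Sp110, 1.19 to 1.55 for Sp140, 2.62 to 3.12 for Daxx and 0.15 to 0.47 for Atrx. Only Sp140 lost its call, without saline replicate 4 (1.38), so that 4 to 5 of the 6 genes were called. Of all genes 198 to 398 were higher, fewest without saline replicate 1, and 8 to 41 lower, fewest without PFSUV-IMQ replicate 4. The pathway lists had 4 to 5 higher, and the genes near the SP genes 2 to 3 higher and 0 to 1 lower, the 1 being 2810459M11Rik without PFSUV-IMQ replicate 2 (-2.99). With 7 tumors 0 pairs of genes can pass, and Daxx minus Atrx changed by 2.51 to 2.77 (exact permutation p = 0.0571).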
